A study of Mus musculus with 16 samples.

Results

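The neutrophil-attracting CXC chemokines and their receptor were followed through skin wounds of db/db and wild-type mice. The members were the ligands Cxcl1, Cxcl2, Cxcl3, Cxcl5 and Ppbp and the receptor Cxcr2. They were taken from the array by gene symbol, through the RefSeq accession that the array design gives for each probe, a rule that uses no measured value, although the set was proposed with earlier results of these data known. Each of the 6 genes had 1 probe, so 6 of 39429 probes and 6 of 20832 named genes are described here.

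Total RNA came from whole wounds with the surrounding intact skin, harvested at 7 or 14 days by label. The WT group was female C57BL/6J mice aged 10 to 12 weeks with untreated wounds. The other groups were female db/db mice aged 10 weeks, of the strain C57BLKS/J Iar-+Lepr db/+Lepr db, which carry a mutated leptin receptor in every cell and are a model of type 2 diabetes, so strain and diabetes cannot be told apart in a comparison with WT. Wounds of the db/db group were left untreated. In the db/db + estrogen group they were given estradiol benzoate on the skin (0.75 μg/g/day), dissolved in oil from sesame, and in the db/db + vehicle group only that oil. Wounds were 4 mm across. Each of the 8 combinations of group and labelled day had 2 arrays, which the submitters call biological replicates. Each mouse had 2 wounds. Whether the arrays of a group came from different animals, or from pooled ones, is not given in the sources used here. The p-values therefore measure the spread between these arrays.

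The 16 arrays were read in 1 colour. The share of probes well above background was 70.1% on the lowest array and 79.0% on the highest. A level below is the log2 of the processed signal minus the log2 of the 75th percentile of that array, so that 0 is the 75th percentile itself and each unit is a doubling. Levels of different probes are not compared, because probes differ in how well they bind. Replicate arrays of a group correlated at r = 0.980 to 0.993 over all probes. All 10 keratinocyte and all 10 fibroblast markers were well above background on at least 1 array. The arrays labelled day 7 lay on 2 slides, with replicate 1 of every group on slide 1 and replicate 2 on slide 2. Those labelled day 14 lay on 2 others, with both db/db arrays on slide 3, both WT arrays on slide 4 and the treated groups split between them. Scanning of the 2 labelled days took place on different days, and the part of the scan cannot be told apart from that of the label. Fold changes of db/db against WT that the study prints under either day were found on arrays labelled with the other, in every gene checked. The estrogen fold changes that it prints under day 14 for Cxcl3, Ltf and Camp likewise lie close to those below for labelled day 7. So do its vehicle fold changes of Ltf and Camp. The results below therefore go by the label, and the time after wounding is not settled.

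These chemokines are small secreted proteins with a Glu-Leu-Arg motif ahead of their paired cysteines, and they bind Cxcr2, the receptor by which neutrophils follow them out of the blood into injured tissue. In skin, keratinocytes, macrophages and fibroblasts make them within hours of injury in answer to interleukin 1, tumour necrosis factor and interleukin 17, largely through the transcription factor NF-kB. Ppbp differs in source, since platelets carry its product in their granules and release it on activation.

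In the RefSeq annotation the 5 ligand genes form a row on mouse chromosome 5, in the order Cxcl5, Ppbp, Pf4, Cxcl3, Cxcl15, Cxcl1 and Cxcl2, while Cxcr2 lies on chromosome 1. The promoters of Cxcl1, Cxcl2 and Cxcl3 share letters that the selection of the members did not use, and they are shown here for that reason, beside Ppbp from the same row. Each line gives the 150 bases before the annotated start, 5′ to 3′ on the plus strand (RefSeq, GRCm38.p6). The places are chr5:90891095-90891244 for Cxcl1, chr5:90903749-90903898 for Cxcl2, chr5:90785951-90786100 for Cxcl3 and chr5:90768368-90768517 for Ppbp. Capitals mark GGAATTTCC, a core of NF-kB sites, and ATAAAA, a motif of the kind bound near the start of transcription.
Cxcl1: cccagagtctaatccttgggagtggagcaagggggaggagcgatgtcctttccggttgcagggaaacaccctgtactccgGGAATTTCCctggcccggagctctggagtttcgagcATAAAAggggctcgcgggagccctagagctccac
Cxcl2: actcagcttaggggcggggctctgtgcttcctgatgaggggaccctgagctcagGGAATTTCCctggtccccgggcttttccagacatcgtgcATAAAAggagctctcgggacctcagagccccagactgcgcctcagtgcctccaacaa
Cxcl3: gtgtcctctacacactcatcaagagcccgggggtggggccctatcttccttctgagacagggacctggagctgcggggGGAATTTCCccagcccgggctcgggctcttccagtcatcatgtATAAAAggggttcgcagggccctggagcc
Ppbp: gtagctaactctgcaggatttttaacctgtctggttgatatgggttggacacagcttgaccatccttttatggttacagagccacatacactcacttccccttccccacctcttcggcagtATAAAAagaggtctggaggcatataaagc

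The GGAATTTCC run lay 70 to 62 bases before the start in Cxcl1, 96 to 88 in Cxcl2 and 72 to 64 in Cxcl3, each time on the strand of the gene. It was followed by ATAAAA after 27, 30 and 34 bases respectively, with no overlap between the motifs. Searched on both strands of a 300-base window, GGAATTTCC occurs in 0.317% of the 32851 promoters of the table. ATAAAA occurs on the gene strand of the last 100 bases in 4.42%, and 7 promoters hold both motifs in these windows. Ppbp has only the ATAAAA run, 29 to 24 bases before its start, and the window of Cxcr2, like those of the neighbours Pf4 and Cxcl15, has neither. The table has no entry for Cxcl5. A match of letters is a description and says nothing of whether the factor bound in these wounds.

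Cxcl1 encodes the chemokine first known as KC. Its level on the arrays labelled day 7 was −0.26 and 0.88 in WT wounds, 1.47 and 1.50 in db/db wounds, 2.58 and 1.83 with vehicle, and −2.09 and −1.08 with estrogen. Under the label day 14 it was 1.59 and 0.06 in WT, 2.91 and 2.64 in db/db, 1.69 and 1.73 with vehicle, and 1.63 and 0.37 with estrogen. The 2 estrogen arrays labelled day 7 lay below every other array, and the 2 db/db arrays labelled day 14 lay above every other. Between these ends, the WT arrays of both labelled days and the estrogen arrays labelled day 14 overlapped, as did the estrogen arrays labelled day 14 and the db/db arrays labelled day 7.

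Cxcl2, also called MIP-2, is made by macrophages and neutrophils themselves as well as by skin cells. For labelled day 7 its levels were −2.70 and −4.76 in WT, 0.55 and 1.01 in db/db, −0.90 and −2.12 with vehicle, and −5.92 and −3.64 with estrogen. Under the label day 14 they were −0.49 and −1.53 in WT, 1.17 and 1.65 in db/db, −1.10 and −0.25 with vehicle, and −0.33 and −2.02 with estrogen. The 4 untreated db/db arrays were the 4 highest of the 16. The WT and estrogen arrays labelled day 7 were the 4 lowest and overlapped each other.

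Cxcl3 is a close relative of Cxcl2. Its levels for labelled day 7 were −3.13 and −6.51 in WT, 1.18 and 0.56 in db/db, 1.79 and 0.35 with vehicle, and −9.12 and −4.62 with estrogen. The −6.51 of WT replicate 2 and the −9.12 of estrogen replicate 1 were not well above background, so only 1 of 2 arrays measured Cxcl3 in each of those groups. The arrays labelled day 14 gave 0.97 and −1.50 in WT, 2.33 and 2.62 in db/db, 0.60 and 1.35 with vehicle, and 1.097 and −2.03 with estrogen. Replicates of the WT and estrogen groups differed by over 2 units on both labelled days, whereas those of db/db differed by less than 1.

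Cxcl5, which epithelial cells make in quantity, gave 0.60 and −1.31 in WT, 3.89 and 1.97 in db/db, 3.34 and 2.35 with vehicle, and −5.63 and −2.07 with estrogen for labelled day 7. Its levels for labelled day 14 were 3.62 and 2.07 in WT, 3.69 and 4.28 in db/db, 3.22 and 3.40 with vehicle, and 3.19 and 1.58 with estrogen. The estrogen arrays labelled day 7 were again the lowest and the WT arrays of that day came next, with no overlap. The other 6 groups ran from a mean of 2.38 to one of 3.99, and only the db/db group labelled day 14 stood clear of its neighbour in that order. Its lower array (3.69) still lay below the higher db/db array labelled day 7 (3.89).

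Ppbp, the platelet basic protein gene, gave −5.64 and −6.35 in WT, −2.65 and −2.02 in db/db, −2.46 and −4.80 with vehicle, and −4.61 and −4.40 with estrogen for labelled day 7. The −6.35 of WT replicate 2 was not well above background. The arrays labelled day 14 gave −2.96 and −3.37 in WT, −1.79 and −2.18 in db/db, −0.74 and −2.81 with vehicle, and −2.67 and −3.63 with estrogen. Unlike the other ligands, Ppbp was lowest in the WT arrays labelled day 7, below the estrogen arrays of the same label with no overlap.

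Cxcr2, carried mainly by neutrophils, gave −0.94 and −1.49 in WT, 0.86 and −0.26 in db/db, −0.65 and −0.76 with vehicle, and −3.76 and −3.45 with estrogen for labelled day 7. Under the label day 14 it gave −0.43 and −1.10 in WT, −0.37 and 0.33 in db/db, −0.20 and −0.55 with vehicle, and −0.21 and −2.21 with estrogen. The 2 estrogen arrays labelled day 7 lay more than 1 unit below all others. In wound homogenate, fewer cells of a type and less RNA in each cell cannot be told apart, for Cxcr2 as for the ligands.

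**Figure D1:**
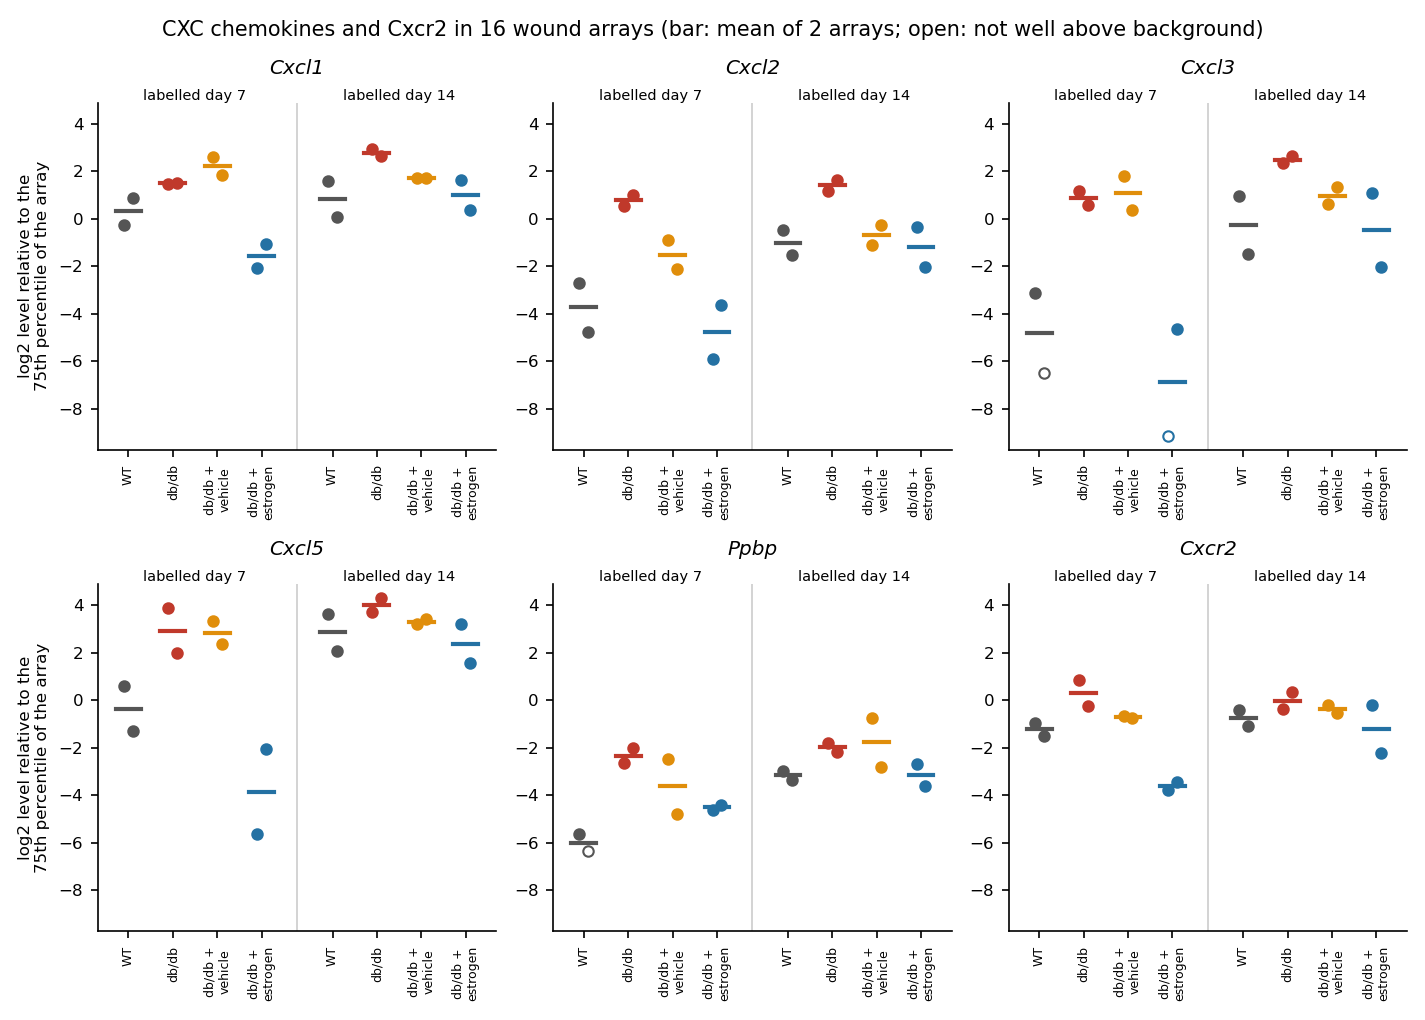
Log2 level of each member relative to the 75th percentile of the array (vertical axis) in the 4 groups of each labelled day; points are the 2 arrays of a group, bars their mean, and open points signals not well above background. By mean, the lowest group is estrogen labelled day 7 for Cxcl1, Cxcl2, Cxcl3, Cxcl5 and Cxcr2, and WT labelled day 7 for Ppbp. For Cxcl2 and Cxcl3 the arrays of these 2 groups overlap.

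Untreated db/db wounds were compared with WT wounds, which differ from them in strain as well as in diabetes. On the arrays labelled day 7, all 6 members had higher means in db/db. limma called 5 of 6 higher, that is with a two-sided p below 0.05 and a fold change above 2, where 5.67% of the 29745 probes tested were called higher. Cxcl2 was 22.7-fold higher (log2 4.51 ± 0.90 SE, adjusted p = 0.0126), Cxcl3 51.5-fold (5.69 ± 1.60, adjusted p = 0.0439) and Ppbp 12.6-fold (3.66 ± 0.78, adjusted p = 0.0161). These 3 passed Benjamini-Hochberg adjustment over all probes tested, as did 4.19% of the probes in that direction. Cxcl5 was 9.74-fold higher and Cxcr2 2.86-fold, with adjusted p of 0.0903 and 0.12. Cxcl1 differed by 1.17 on the log2 scale with a 95% interval from −0.17 to 2.51 and was not called. Within slides, the log2 difference of Cxcl2 was 3.25 on slide 1 and 5.77 on slide 2, and 5 members were called with slide as a fixed block. The counts rested partly on single arrays, since 3 members were called without WT replicate 2 and 3 without db/db replicate 1, and Cxcr2 and Cxcl5 lost their calls in both cases. Without that WT array Cxcl3 fell to a difference of 3.99 and was no longer called, while Cxcl1 rose to 1.75 and was.

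By the label day 14 the 6 members again had higher means in db/db, and 2 of 6 were called where 2.35% of the probes were called higher. Cxcl1 was 3.87-fold higher (log2 1.95 ± 0.60 SE, adjusted p = 0.0467) and Cxcl2 5.36-fold (2.42 ± 0.90, adjusted p = 0.087). Only Cxcl1 passed adjustment, against 1.59% of the probes. Cxcl3 differed by 2.74 with an interval from −0.84 to 6.31, and the differences of Cxcl5, Ppbp and Cxcr2 were 1.14, 1.18 and 0.75. No slide held arrays of both groups. Slide as a fixed block, which links them through the treated groups, left 0 members called, with Cxcl1 at 1.34 and Cxcl2 at 2.00, and turned Ppbp to −0.34 and Cxcr2 to −0.43. No member was called without WT replicate 2 either, with Cxcl1 at 1.19 and Cxcl2 at 1.90, and without db/db replicate 2 Cxcl2 was at 2.19 and lost its call.

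Estrogen treatment was compared with the untreated db/db wound. On the arrays labelled day 7 all 6 members were called lower with estrogen, where 4.71% of the 30187 probes tested were called lower. Cxcl5 was 110-fold lower (log2 −6.78 ± 1.16 SE, adjusted p = 0.0096) and Cxcl2 47.3-fold lower (−5.56 ± 0.90, adjusted p = 0.00743). The receptor Cxcr2 was 15.0-fold lower (−3.91 ± 0.59, adjusted p = 0.00563) and Cxcl1 8.39-fold lower (−3.07 ± 0.60, adjusted p = 0.0175). Cxcl3 was 214-fold lower as measured (−7.74 ± 1.60, adjusted p = 0.0223), and 102-fold lower once signals below the lowest detected level were set to that level. These 5 passed adjustment, as did 2.62% of the probes. Ppbp was 4.49-fold lower with an adjusted p of 0.151, and it lost its call without estrogen replicate 1 (−2.06), without estrogen replicate 2 (−2.27) or without db/db replicate 2 (−1.85). The other 5 members kept their calls whichever of the 4 arrays was left out, but sizes moved, from −4.42 to −6.70 for Cxcl2, from −5.49 to −9.99 for Cxcl3 and from −4.99 to −8.56 for Cxcl5. Within slides the difference of Cxcl5 was −9.52 on slide 1 and −4.03 on slide 2, that of Cxcl3 −10.3 and −5.18, that of Cxcl2 −6.47 and −4.65, that of Cxcl1 −3.56 and −2.57, and that of Cxcr2 −4.62 and −3.19. A fixed slide block left 6 members called.

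For labelled day 14 the estrogen wounds had lower means than db/db for all 6 members, and 2 of 6 were called lower against 1.36% of the probes. Cxcl1 was 3.43-fold lower (log2 −1.78 ± 0.60 SE, adjusted p = 0.392) and Cxcl2 5.99-fold lower (−2.58 ± 0.90, adjusted p = 0.415). None passed adjustment, which 0.00354% of the probes did in this direction. Cxcr2, at −1.19, had an interval from −2.51 to 0.13. On slide 3, which held both db/db arrays and estrogen replicate 1, Cxcl1 differed by −1.28 and −1.01 and Cxcl2 by −1.50 and −1.98, and Cxcr2 by 0.16 and −0.53. The count was 0 with slide as a fixed block, where Cxcl1 stood at −1.47 and Cxcl2 at −2.37, and 0 without estrogen replicate 2, where Cxcl1 stood at −1.15 and Cxcl2 at −1.74. It was 4 without estrogen replicate 1, with Cxcl3 at −4.50 and Cxcr2 at −2.19 added, and 1 without either db/db array.

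The oil alone was compared with the untreated db/db wound to see what the vehicle did. Cxcl2 was the only member called, 4.89-fold lower for labelled day 7 (log2 −2.29 ± 0.90 SE, adjusted p = 0.318) and 4.25-fold lower for labelled day 14 (−2.09 ± 0.90, adjusted p = 0.271). In this direction 2.3% of the probes were called on the day 7 arrays and 2.2% on the day 14 arrays, and 0.111% and 0.0551% passed adjustment. For labelled day 7 the intervals ran from −0.62 to 2.06 for Cxcl1, from −3.38 to 3.77 for Cxcl3 and from −2.67 to 2.50 for Cxcl5, so that for Cxcl3 and Cxcl5 they include changes of several fold either way. Cxcl2 lost its call on both labelled days with slide as a fixed block, without either db/db array and without vehicle replicate 2, and for labelled day 14 without vehicle replicate 1 too. Its difference over these fits ran from −1.66 to −2.52. Within slides it was −1.45 and −3.13 in the first pair of groups and −2.27 and −2.75 in the second. Ppbp was called lower for labelled day 7, at −2.46, without vehicle replicate 1.

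Estrogen against vehicle separates the hormone from the oil. On the arrays labelled day 7, 5 of 6 members were called lower with estrogen, where 4.32% of the 30149 probes tested were called lower. Cxcl3 was 245-fold lower (log2 −7.94 ± 1.60 SE, adjusted p = 0.0324), or 118-fold with the floor on undetected signals, and Cxcl5 was 103-fold lower (−6.69 ± 1.16, adjusted p = 0.0183). Cxcl1 was 13.8-fold lower (−3.79 ± 0.60, adjusted p = 0.0131) and Cxcr2 7.46-fold lower (−2.90 ± 0.59, adjusted p = 0.0337). These 4 passed adjustment, as did 1.26% of the probes. Cxcl2 was 9.66-fold lower with an adjusted p of 0.0797, and without estrogen replicate 1 its difference was −2.13 and lost its call. Ppbp, at −0.88 with an interval from −2.62 to 0.87, was not called, and its vehicle arrays lay on either side of the estrogen arrays. Without vehicle replicate 2 Ppbp was called at −2.04, and without vehicle replicate 1 it turned to 0.29. Leaving out 1 array moved Cxcl3 between −5.69 and −10.19 and Cxcl5 between −4.91 and −8.47. Within slides the differences of Cxcl5 were −8.97 and −4.41, those of Cxcl1 −4.67 and −2.91 and those of Cxcr2 −3.11 and −2.69, and 5 members were called with slide as a fixed block.

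No member was called between estrogen and vehicle for labelled day 14 (0 of 6, where 0.476% of the probes were called lower at the unadjusted threshold and 0% after adjustment). The 6 differences ran from −0.50 for Cxcl2 to −1.44 for Cxcl3. The interval of Cxcl1 was −2.05 to 0.63 and that of Cxcr2 −2.15 to 0.49, so a reduction of 4-fold was within both. Without estrogen replicate 1 Cxcr2 was called at −1.83, and without vehicle replicate 2 Ppbp was called at −2.40. Within slides Cxcr2 differed by 0.00 on slide 3 and by −1.66 on slide 4.

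**Figure D2:**
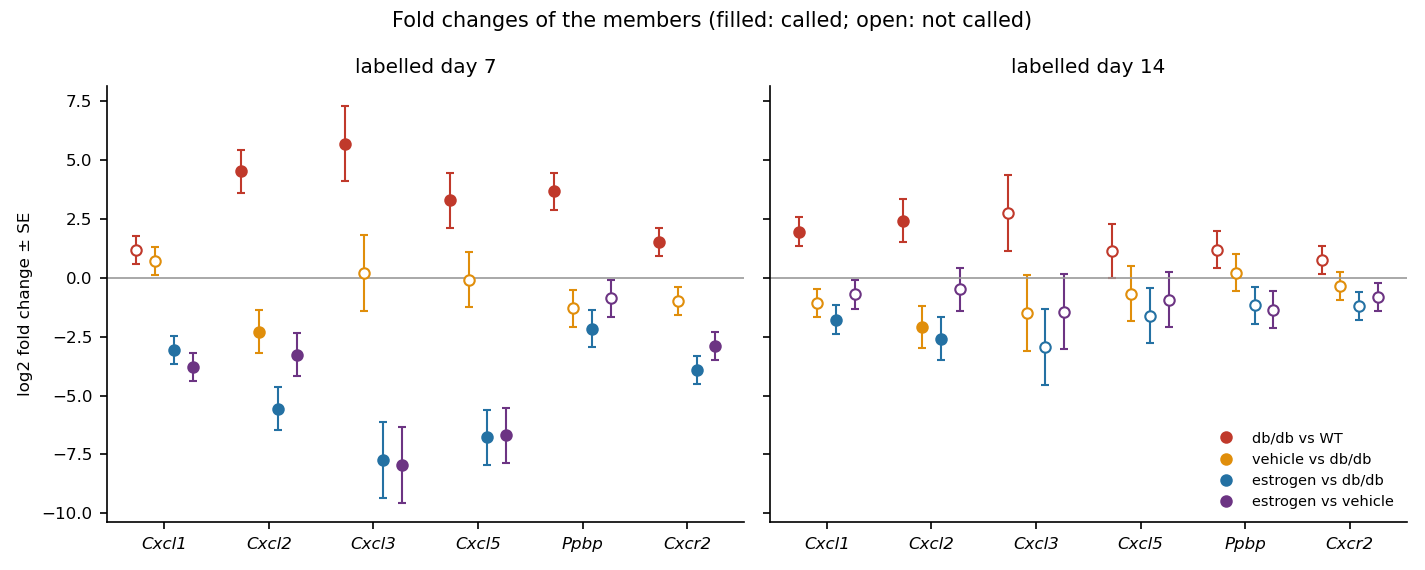
Log2 fold change with its standard error (vertical axis) of each member in 4 comparisons, for labelled day 7 on the left and labelled day 14 on the right, with 2 arrays per group; filled points were called. With estrogen, Cxcl3 and Cxcl5 differ by −6.69 to −7.94 from both other db/db groups for labelled day 7, whereas for labelled day 14 no member was called against vehicle.

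The treated wounds were also set against WT. These comparisons share the WT arrays with that of db/db. With vehicle, 5 members were called higher than WT for labelled day 7, where 3.91% of the probes were called higher, from 3.71-fold for Cxcl1 to 59.1-fold for Cxcl3, and Cxcr2 was not called at 0.51. With estrogen, Cxcl1, Cxcl5 and Cxcr2 were called lower than WT, by 3.72-fold, 11.3-fold and 5.24-fold, where 4.49% of the probes were called lower. Their adjusted p were 0.121, 0.138 and 0.052, and no adjusted p with vehicle was below 0.0514. Cxcl3 was not tested between estrogen and WT, because neither group had both arrays well above background. Leaving out single arrays ended the vehicle calls of Cxcl1 (1.32 without WT replicate 1, 1.52 without vehicle replicate 1), Cxcl2 (1.19 without WT replicate 2, 1.61 without vehicle replicate 1), Cxcl5 (2.24 and 2.70 without the same arrays) and Ppbp (2.01 and 1.20 likewise), but not that of Cxcl3. Without estrogen replicate 1, Cxcl5 was at −1.71 and Cxcl1 at −1.39, and both lost the call against WT. Cxcl1 also lost it without WT replicate 2 (−1.32) and Cxcl5 without WT replicate 1 (−2.54), while Cxcr2 kept it whichever array was left out. Against WT for labelled day 14, 0 members were called higher with vehicle and 0 lower with estrogen, where 2.54% and 10.8% of the probes were.

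Between the labelled days, 5 members were called higher for labelled day 14 within the estrogen group, where 3.05% of the probes were called higher. Cxcl5 differed by 6.23 (adjusted p = 0.0129), Cxcl3 by 6.40 (adjusted p = 0.0327), Cxcl2 by 3.61 (adjusted p = 0.0329), Cxcl1 by 2.58 (adjusted p = 0.0257) and Cxcr2 by 2.40 (adjusted p = 0.0314), and 1.89% of the probes passed adjustment. The 6.40 of Cxcl3 became 5.34 with the floor on undetected signals. Leaving out 1 array moved it between 4.15 and 8.65, and the difference of Cxcl5 between 4.45 and 8.01. In WT wounds Cxcl2, Cxcl3, Cxcl5 and Ppbp were called higher, by 2.71, 4.55, 3.20 and 2.83, against 1.93% of the probes, with adjusted p from 0.251 to 0.308. Cxcl2, Cxcl3 and Cxcl5 lost that call without WT replicate 2 of labelled day 7 (1.68, 2.86 and 2.25) and without WT replicate 1 of labelled day 14 (2.19, 3.32 and 2.43). A fixed slide block ended these 3 calls as well, at larger differences of 3.06, 5.62 and 3.76. Ppbp alone was called with vehicle, at 1.85 (adjusted p = 0.161) where 2.43% of the probes were called, and it lost the call without replicate 2 of labelled day 7 (0.68) or replicate 1 of labelled day 14 (0.82). No member was called between the labelled days in untreated db/db wounds, where 1.37% of the probes were called higher.

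A list of 14 cytokine genes, drawn up for inducers of these ligands, was read, and 11 of them had a probe. The list also holds Csf3 and Il6, and whether any of its genes switched on the ligands in these wounds was not tested. For labelled day 7, 4 of the 11 were called higher in db/db than in WT and none lower, with a median log2 difference of 1.69 against −0.05 over all probes tested. With estrogen, 5 were called lower than in db/db and 1 higher (median −2.37 against 0.04), and 7 were called lower than with vehicle and 1 higher (median −2.07 against 0.01). The 4 named had the smallest p in the first of these comparisons, and tested genes named from the lists below were picked likewise. The comparisons of estrogen and of vehicle with db/db reuse the same db/db arrays. For genes picked this way, a change against db/db is therefore not separate from the first result.

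Il1b, the interleukin 1 beta gene, had levels of 0.69 and −0.90 in WT, 3.46 and 3.95 in db/db, 2.06 and 1.86 with vehicle, and −4.55 and −0.99 with estrogen for labelled day 7. It was 14.0-fold higher in db/db than in WT (adjusted p = 0.035) and 89.0-fold lower with estrogen than in db/db (adjusted p = 0.00627). Csf3 encodes G-CSF, which releases neutrophils from the marrow. Its levels were −6.10 and −8.73 in WT, −0.91 and −0.86 in db/db, −2.10 and −1.52 with vehicle, and −8.84 and −5.97 with estrogen, and 1 array each of WT and estrogen was not well above background. Csf3 was 92.3-fold higher in db/db than in WT (adjusted p = 0.00642) and 91.9-fold lower with estrogen than in db/db (adjusted p = 0.00952). With undetected signals set to the lowest detected level of their array these became 44.3-fold and 48.6-fold. Tnf was 8.89-fold higher in db/db than in WT (adjusted p = 0.00338), 8.84-fold lower with estrogen than in db/db (adjusted p = 0.00509), and 4.30-fold lower with vehicle than in db/db (adjusted p = 0.113). Il6 was 6.58-fold higher in db/db than in WT (adjusted p = 0.0852) and 10.2-fold lower with estrogen than in db/db (adjusted p = 0.0694).

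Of the inducer list, 0 of 10 genes tested on the day 14 arrays were called higher in db/db than in WT and 3 lower. Over all 30278 probes tested, 713 were called higher and 4727 lower, and the median log2 difference of the list was 0.48 against −0.12. Il1b was 6.64-fold lower with estrogen and 6.64-fold lower with vehicle than in db/db, with adjusted p of 0.45 and 0.213, and between estrogen and vehicle its log2 difference was 0.00.

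**Figure D3:**
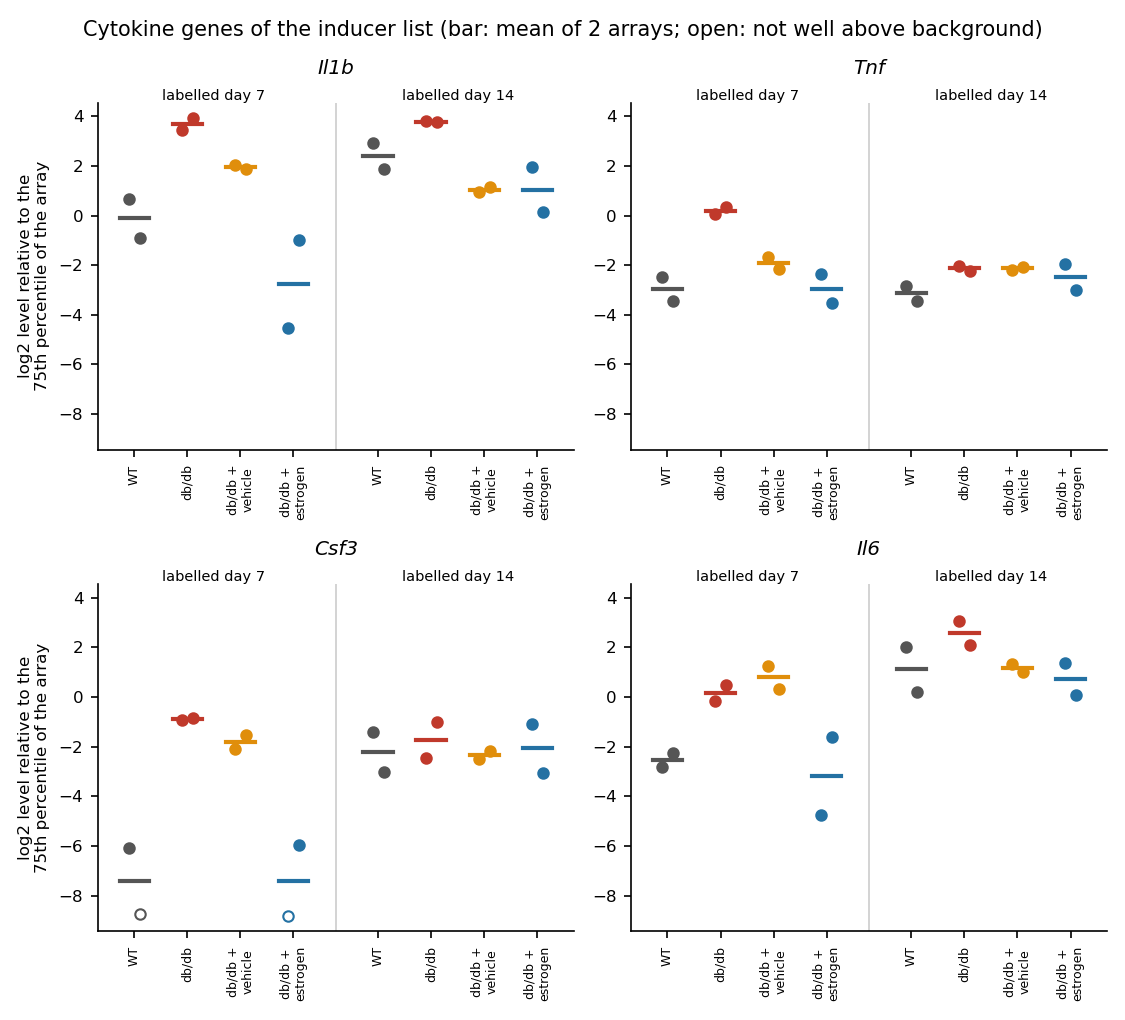
Log2 level relative to the 75th percentile of the array (vertical axis) of Il1b, Tnf, Csf3 and Il6 in the 4 groups of each labelled day; points are arrays, bars the mean of 2 arrays, and open points signals not well above background. For labelled day 7, both db/db arrays lie above both WT and both estrogen arrays in all 4 panels.

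Among 13 genes of NF-kB and its feedback inhibitors, 3 were called higher in db/db than in WT on the day 7 arrays and 4 lower with estrogen than in db/db, with medians of 0.60 and −0.79. Tnfaip3, which encodes the inhibitor A20, was 2.12-fold higher in db/db (adjusted p = 0.023) and 4.07-fold lower with estrogen (adjusted p = 0.00269). Nfkbie, an inhibitor that NF-kB itself induces, was 3.07-fold higher and 3.84-fold lower (adjusted p of 0.00884 and 0.00583). Tnip1, a partner of A20, was 2.08-fold higher in db/db and Relb, a subunit, 1.64-fold, which is under the fold threshold. On the day 14 arrays, 2 of the 13 were called higher in db/db, Tnfaip3 among them at 2.60-fold (adjusted p = 0.0067), and 0 were called with estrogen against db/db.

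The other CXC ligands did not follow these members as a group. Of 7 tested between db/db and WT on the day 7 arrays, 2 were called higher and 2 lower. Cxcl9 and Cxcl10, interferon-induced ligands of Cxcr3 that attract T cells, were 11.4-fold and 8.58-fold lower in db/db (adjusted p of 0.0284 and 0.0243). Pf4, the platelet ligand that lies between Ppbp and Cxcl3, was 2.82-fold higher in db/db (adjusted p = 0.0297) and 1.42-fold lower with estrogen than in db/db, which was not called. Cxcl16 was 1.96-fold higher in db/db and 2.16-fold lower with estrogen (adjusted p of 0.0292 and 0.0286).

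Among 9 other CXC and atypical receptors, 3 were called higher and 1 lower in db/db than in WT on the day 7 arrays, and 2 were called higher and 3 lower with estrogen than in db/db. Cxcr1, which shares ligands with Cxcr2, was 9.25-fold higher in db/db (adjusted p = 0.0562) and 24.8-fold lower with estrogen than in db/db (adjusted p = 0.0238), with 1 of the 2 estrogen arrays well above background and the same fold with the floor. Cxcr4, the Cxcl12 receptor that holds neutrophils in the marrow, was 2.01-fold higher in db/db and 4.25-fold lower with estrogen (adjusted p of 0.0325 and 0.00257). Cxcr6 was 4.98-fold lower in db/db (adjusted p = 0.0371). Cxcr5 was not well above background on either WT array and was at least 1.53-fold higher in db/db, from the lowest detected signal (adjusted p = 0.101).

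A list of 14 receptors, drawn up for other neutrophil attractants such as formyl peptides and complement, also held the Toll-like receptors Tlr2 and Tlr4. Of the 14, 7 were called higher and 1 lower in db/db than in WT on the day 7 arrays. With estrogen, 4 were called lower than in db/db. Fpr1, a formyl peptide receptor, was 25.9-fold higher in db/db (adjusted p = 0.00778) and 93.4-fold lower with estrogen (adjusted p = 0.003). C5ar1, the receptor for complement C5a, was 4.16-fold higher in db/db (adjusted p = 0.00154), and with estrogen it stood 1.09-fold below db/db, which was not called. Tlr2 was 3.25-fold higher in db/db than in WT and 3.54-fold lower with estrogen than in db/db (adjusted p of 0.00986 and 0.0108). Tlr4 differed by 1.96-fold and 1.36-fold in these comparisons, both under the fold threshold.

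Of 12 genes for the adhesion of neutrophils to vessels, 4 were called higher and 1 lower in db/db for labelled day 7, and 3 were called lower and 1 higher with estrogen against db/db. Vcam1 was 4.45-fold higher in db/db, 4.57-fold lower with estrogen and 9.45-fold lower with vehicle (adjusted p of 0.0122, 0.0174 and 0.0302). Icam1 and Itgb2, a ligand and a subunit of the leukocyte integrins, were 2.35-fold and 2.45-fold higher in db/db, while Itgam, the partner subunit, was 4.08-fold lower.

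A list of neutrophil markers was read beside the members. Of 26 genes on the list 24 had a probe, all of them well above background on at least 1 array, and 3 of the 26 also stood on another list. For labelled day 7, 20 were called higher in db/db than in WT and 21 lower with estrogen than in db/db, with medians of 3.54 and −4.70, and none moved the other way. With vehicle 13 were called lower than in db/db (median −1.71), and with estrogen 12 were called lower than with vehicle and 1 higher (median −2.06). The mean log2 level of the 24 genes was −1.61 to −0.88 in the WT arrays labelled day 7, 2.26 to 2.80 in db/db, 0.36 to 0.60 with vehicle and −1.87 to −1.51 with estrogen. Over the arrays labelled day 14 it was −0.56 to −0.29, 0.59 to 1.21, 0.16 to 0.22 and −0.41 to 0.53 in the same order. The part of neutrophil number in the levels of Cxcr2 and the ligands was not tested.

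The granule genes Ltf and Camp were 281-fold and 135-fold higher in db/db than in WT on the day 7 arrays (adjusted p of 3.3e-04 and 9.6e-04). Against db/db, Ltf was 453-fold lower with estrogen and 120-fold lower with vehicle, and Camp 135-fold and 67.8-fold. Between estrogen and vehicle Ltf differed by 3.78-fold and Camp by 1.99-fold (adjusted p of 0.185 and 0.522). Trem3, a receptor of myeloid cells, was 27.0-fold lower with estrogen than in db/db and 6.81-fold lower than with vehicle (adjusted p of 4.0e-04 and 0.0041). Ctsg, the cathepsin G gene, was 70.8-fold higher in db/db than in WT (adjusted p = 1.2e-04) and 2.69-fold lower with estrogen than in db/db (adjusted p = 0.107). In vehicle against db/db on the day 7 arrays, Cxcl1, Cxcl3 and Cxcl5 differed by 0.72, 0.20 and −0.09 (log2). Cxcl2, Ppbp and Cxcr2 differed by −2.29, −1.29 and −1.01. Ltf and Camp stood at −6.91 and −6.08, while the median of the 24 neutrophil markers was −1.71.

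**Figure D4:**
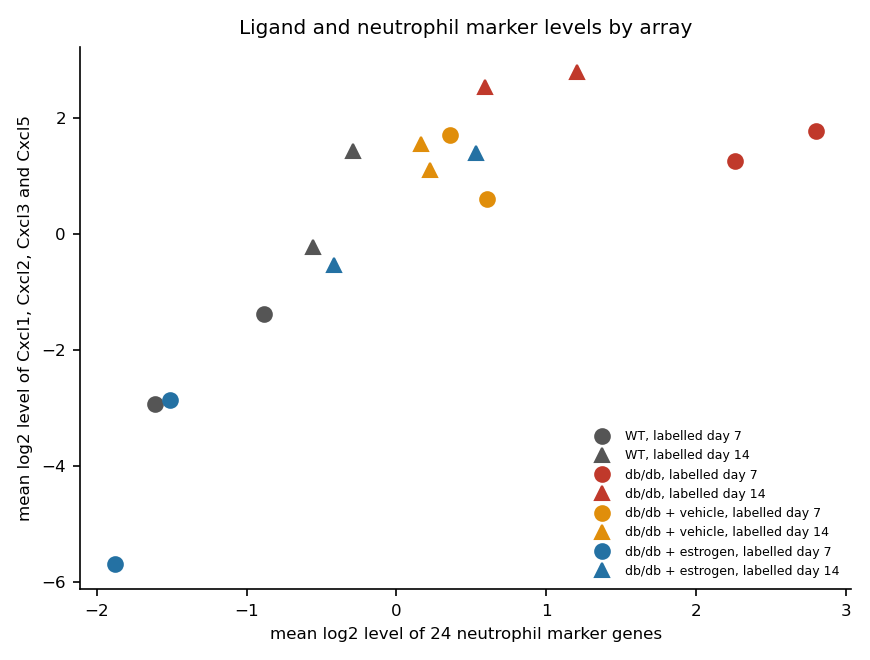
Mean log2 level of Cxcl1, Cxcl2, Cxcl3 and Cxcl5 (vertical axis) against that of 24 neutrophil marker genes (horizontal axis), 1 point per array, both relative to the 75th percentile of the array. The estrogen array labelled day 7 with the lowest ligand mean (−5.69) also has the lowest marker mean (−1.87), whereas the highest ligand mean (2.80, db/db labelled day 14) lies at a marker mean of 1.21, below both db/db arrays labelled day 7.

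Macrophage markers, which mark another source of Cxcl2, were called higher in db/db than in WT in 11 of 14 genes for labelled day 7, and with estrogen 6 were called lower and 1 higher than in db/db. Their mean level was 0.52 to 1.47 in WT, 2.67 to 2.74 in db/db, 2.19 to 2.47 with vehicle and 1.92 to 2.29 with estrogen. Keratinocyte markers were called lower in db/db in 4 of 10 genes and higher with estrogen than in db/db in 5 of 10, with means of 3.81 to 3.93 in WT, 2.33 to 3.05 in db/db, 3.36 to 4.07 with vehicle and 3.72 to 4.06 with estrogen. T cell markers were called lower in db/db in 6 of 10, mast cell markers higher in 4 of 8, and fibroblast markers higher in 1 of 10. Adipocyte markers split, with 2 called higher and 1 lower in db/db. Between these groups 0 of 10 endothelial and 0 of 10 muscle markers were called. Over the 16 arrays the mean of the muscle markers ran from 1.72 to 5.86, and both ends were estrogen arrays labelled day 14. The keratinocyte means of that group were 2.76 and 3.89. All estrogen comparisons for labelled day 14 rest on these 2 arrays, which thus differed in tissue markers. The part of these cell types in the members' levels was not tested.

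For Ppbp, the list of 12 platelet and megakaryocyte genes bears most directly. For labelled day 7, 3 of the 11 tested were called higher in db/db than in WT, where 5.67% of all probes tested were. With estrogen or with vehicle, 0 of 11 were called against db/db. Between estrogen and vehicle, 3 of the 10 tested were called lower with estrogen, where 4.32% of all probes tested were. Gp9, a subunit of the platelet receptor for von Willebrand factor, was not well above background on either WT array and was at least 6.88-fold higher in db/db (adjusted p = 0.0168). Treml1 was 3.04-fold higher (adjusted p = 0.0772). Gp5 was well above background on no array. The mean of the 11 detected genes was −3.70 to −3.30 in WT, −2.77 to −2.75 in db/db, −2.89 to −2.68 with vehicle and −3.21 to −3.03 with estrogen.

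Likeness between genes was measured as Pearson's r over the 16 arrays, among 16872 named genes well above background on at least 8 arrays, as a description in which arrays of a group share their condition. Cxcl3 and Cxcl5 were each other's nearest gene (r = 0.967), and both had Saa3, an acute-phase serum amyloid gene, and Wdr92 next. The remaining ones were Csf3 and Cxcl2 for Cxcl3, and the chitinase-like genes Chil3 and Chil4 for Cxcl5. Nearest to Cxcl2 were Mirt2 (r = 0.971), Fpr1 (r = 0.966), Slc32a1 and Samsn1. For Cxcl1 they were Dbx2 (r = 0.926), 1700012B09Rik, Ier3, Ptgs2, which encodes cyclooxygenase 2, and Inhba. Those of Cxcr2 were Marcksl1 (r = 0.931), Slc7a11, Smim3 and Upp1. Ppbp stood apart, with Rab4b (r = 0.863), Gne, Esd, Dedd and Abhd10 nearest, and its r with the other members ran from 0.554 with Cxcr2 to 0.778 with Cxcl2. Among the other 5 members r ran from 0.807 to 0.967.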

How the data were processed

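The authors scanned each array with Feature Extraction 11.0.1.1. The intensity used here is its deposited processed signal, corrected for background by that software and not scaled between arrays. In the series matrix the authors gave a ratio for 34643 probes from GeneSpring, which lay within 0.2% of the signal over the 75th percentile of the array for at least 99.6% of the probes; its medians ran from 0.139 to 0.182. Array design names follow mm9.

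Outlier spots were dropped, spots of a probe averaged, log2 taken and the log2 75th percentile subtracted. RefSeq named 69.6% of the probes. Testing a probe required that both arrays of 1 compared group, or more, had it well above background. limma 3.58.1 (R 4.3.3) was fitted to 8 groups of 2 arrays, with 8 residual degrees of freedom, and p-values were adjusted over all probes tested. It was tested on simulated data. An exact permutation test of 2 against 2 arrays cannot go below 0.333, so the number of arrays limits precision.

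All 6 members are described, the 4 genes of each list with the smallest p for db/db against WT (day 7 label), and the 5 genes most like each member, of which 2 are not reported here. Members and lists were chosen with earlier results of these data known. A gene with several probes was read through the brightest. Alternatives were normexp (offset 50), quantile normalization, other filters, a floor, the series matrix, single comparisons, slide (statmod 1.5.0) and replicate blocks, adjusted calls, the mean of a gene's probes and leaving out each array.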

Additional observations from a re-analysis of the deposited data

Results flagged for a closer look

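The difference of each comparison between the labelled days was tested for the 6 members in the same limma model, in 24 tests, and 8 had a two-sided p below 0.05 and a difference above 1 on the log2 scale. Over all probes tested, the share past the same thresholds was 9.39% for db/db against WT, 6.27% for estrogen against db/db, 2.81% for vehicle against db/db and 7.16% for estrogen against vehicle. None of the 8 passed Benjamini-Hochberg adjustment over all probes, where the lowest adjusted p was 0.24. For estrogen against vehicle, the log2 fold change was higher (nearer 0) for labelled day 14 than for labelled day 7 by 3.07 ± 0.85 (SE) for Cxcl1, 6.50 ± 2.27 for Cxcl3 (5.44 with the floor on undetected signals), 5.77 ± 1.64 for Cxcl5 and 2.07 ± 0.84 for Cxcr2. For estrogen against db/db it was higher by 2.98 ± 1.28 for Cxcl2, 5.17 ± 1.64 for Cxcl5 and 2.72 ± 0.84 for Cxcr2. For db/db against WT, the fold change of Ppbp differed by −2.48 ± 1.11, that is, the excess in db/db was smaller for labelled day 14. Cxcl1, Cxcl5 and, against db/db, Cxcr2 stayed past the unadjusted threshold whichever of the 8 arrays was left out. The others did not: Cxcl2 lost it for 6 of the 8 arrays (1.84 to 4.12), Cxcl3 for 3 (4.25 to 8.75), Cxcr2 against vehicle for 5 (1.07 to 3.07) and Ppbp for all 8 (−2.83 to −2.12). These comparisons share their estrogen, db/db and vehicle arrays. Labelled day and scan day cannot be told apart, and the scan day's part in these differences was not tested.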

How the results depend on the processing

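With 2 arrays per group, single arrays weigh heavily. Leaving out 1 array gave 3 to 5 members called for db/db against WT on labelled day 7 and 0 to 2 on labelled day 14, 5 to 6 and 0 to 4 for estrogen against db/db, 0 to 2 and 0 to 0 for vehicle against db/db, and 4 to 6 and 0 to 1 for estrogen against vehicle. Of 1226 recomputed fold changes 1071 kept direction and call, 143 changed call and 12 turned direction. With slide as a fixed block, 0 members were called for db/db against WT and for estrogen against db/db on labelled day 14 and for vehicle against db/db on both days; Ppbp turned to −0.34 and Cxcr2 to −0.43 in db/db against WT, and Cxcr2 to 0.23 in vehicle against db/db, all on labelled day 14. The other 9 turned when 1 array was left out. On labelled day 7 the ranges over arrays were −0.52 to 0.92 for Cxcl3 and −1.05 to 0.88 for Cxcl5 in vehicle against db/db, and −2.04 to 0.29 for Ppbp in estrogen against vehicle. On labelled day 14 they were −1.34 to 0.34 for Cxcl2, −3.005 to 0.12 for Cxcl3 and −1.83 to 0.17 for Cxcr2 in estrogen against vehicle, and −0.83 to 1.24 for Ppbp in vehicle against db/db. Adjusted p left 3 and 1 members called for db/db against WT, and 0 for vehicle against db/db on both days and for estrogen against db/db on labelled day 14. Requiring detection on every array left 3 called of the 4 members then tested for db/db against WT on labelled day 7, without Cxcl3 and Ppbp. Fitting only the 4 arrays compared gave 4 for db/db against WT and 3 for vehicle against db/db on labelled day 14, and quantile normalization 0 for the latter. The cause was not tested. The 256 counts of list genes were recomputed 4032 times and moved by over 1.5 times in 474.

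Replicate numbers followed the slides on labelled day 7, so the replicate block for that day is the same as the slide block. The correlation of deviations between same-numbered arrays ran from −0.45 to 0.39 over 25908 probes, with no common sign. Of 74 member fold changes, called or not, 71 kept direction and call status with the replicate block, and 3 lost their call. With it, 0 members were called for vehicle against db/db on labelled day 14. The crossed pairing, chosen after seeing the data, also gave 0 there, and Cxcl2 stood at −2.09 with either block and with none. Dim signals limit Cxcl3 and Ppbp in the WT and Cxcl3 in the estrogen arrays labelled day 7.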
